A study of Mus musculus with 2 samples.

Results

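The 5 miRNA genes followed here, all known from muscle stem cells, were measured in the calf muscle of newborn mice: Mir31, Mir489 and Mir708, known from quiescent satellite cells, and Mir221 and Mir222, known from dividing myoblasts. They were taken by name from the 2202 miRNA genes of the deposited tables, and the rule uses no measured value. The tissue was whole gastrocnemius, a hind limb muscle, from female B6CASTF1/J mice, first-generation hybrids of C57BL/6J and CAST/EiJ, at age 4 days, with no treatment in the labels. Small RNA was sequenced in 1 group of 2 libraries, hereafter library 1 and library 2. The labels number the females separately but list the same donor identifier for both, so p-values concern these libraries alone, and differences between them may be technical. With 1 group there was no condition to compare.

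Satellite cells are the stem cells of skeletal muscle, lying between the fibre and its basement membrane. In adult muscle they rest, and on injury they become myoblasts that divide and fuse. Around birth the muscle still grows by fusion of dividing progenitors, and the pool of resting cells is set aside later. A miRNA is cut from a hairpin as a single strand that pairs with target transcripts mainly through its seed, bases 2 to 8. Mir31 is known to hold back translation of Myf5, a myogenic transcription factor, and Mir489 to repress Dek, a chromatin protein of activated cells. Mir708 acts downstream of Notch and represses Tns3, a focal adhesion protein, and Mir221 and Mir222 repress Cdkn1b, an inhibitor of the cell cycle. Whole muscle holds many cell types, and fewer cells of a type cannot be told apart from less RNA per cell.

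Mature sequences were taken from RefSeq (GRCm38.p6, a patch release of the assembly called mm10), which held entries for 5 of 5 genes. The strand known as the functional one of each hairpin is shown 5′ to 3′ because the seed, in capitals, sets which members can share targets.
miR-31-5p: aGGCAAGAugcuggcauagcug
miR-489-3p: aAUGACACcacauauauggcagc
miR-708-5p: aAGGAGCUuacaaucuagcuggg
miR-221-3p: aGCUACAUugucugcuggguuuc
miR-222-3p: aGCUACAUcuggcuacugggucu
miR-28a-5p: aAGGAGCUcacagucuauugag
The first 8 bases of miR-221-3p and miR-222-3p were identical, and 11 of 23 positions matched in all. The quiescence members had 3 different seeds, and none of them was the seed of Mir221 and Mir222. Mir28a, which is no member, is shown because its 5′ strand carried the seed of miR-708-5p, with 16 of 22 positions matching. The tables count reads per gene and not per strand of the hairpin, so how the reads divided between the strands was not analysed here.

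In mm10 the members lay on 4 chromosomes. Mir31 was annotated at chr4:88910557-88910662, minus strand, within the exon sequence of AL805899.1, a long noncoding RNA gene. Mir489 lay at chr6:3721897-3722003, minus strand, in an intron of Calcr, the calcitonin receptor gene, itself known as a marker of quiescent satellite cells. Mir708 lay at chr7:96249424-96249532, plus strand, in intron 1 of Tenm4, a transmembrane teneurin gene. Each of these hairpins was on the strand of its host. Mir221 at chrX:19146294-19146388 and Mir222 at chrX:19146893-19146971, both minus strand, lay 504 bases apart with no annotated host gene.

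Mir708 was the highest of the 5 genes and Mir489 the lowest, and genes of the quiescence and growth classes alternated in between. Levels are reads on the gene's own strand, scaled to CPM by the sum of such reads over all genes, 5569392 in library 1 and 4336759 in library 2. Intervals are exact Poisson 95% intervals and cover counting error only. No molecular identifiers are named in the labels, so copies made by amplification may be counted as separate reads, which the intervals do not cover. Comparisons between genes, here and below, are of reads. Whether the libraries captured all sequences equally well was not tested. Detection was set at a level of at least 2 CPM in each library, which 335 genes and 4 of the 5 members reached.

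Among the quiescence genes, Mir708 had 1533 counts in library 1 and 1334 in library 2, which is 275 CPM (262 to 289) and 308 CPM (291 to 325). Its mean of 291 ± 22.9 CPM (SD, n = 2) ranked it 139th of the detected genes, whose median was 123 CPM. Mir31 had 333 and 230 counts, which is 59.8 CPM (53.5 to 66.6) and 53.0 CPM (46.4 to 60.4). The 2 libraries' intervals for Mir31 overlapped, and its mean of 56.4 ± 4.78 CPM (SD, n = 2) lay below the median detected gene, at rank 200. Mir489 had 7 counts in library 1 and 5 in library 2, or 1.26 CPM (0.505 to 2.59) and 1.15 CPM (0.374 to 2.69). It was the 1 member below the detection level. Its counts exceeded the limit that a count of 0 allows, 3 counts or 0.539 CPM in library 1 and 0.692 CPM in library 2, but both intervals reached below that limit.

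Of the growth genes, Mir221 had 494 and 446 counts, which is 88.7 CPM (81.0 to 96.9) and 103 CPM (93.5 to 113), a mean of 95.8 ± 10.0004 CPM (SD, n = 2) at rank 180. Mir222 had 80 and 73 counts, or 14.4 CPM (11.4 to 17.9) and 16.8 CPM (13.2 to 21.2), a mean of 15.6 ± 1.75 CPM (SD, n = 2) at rank 247. Both genes were somewhat higher in library 2, with overlapping intervals.

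**Figure D1:**
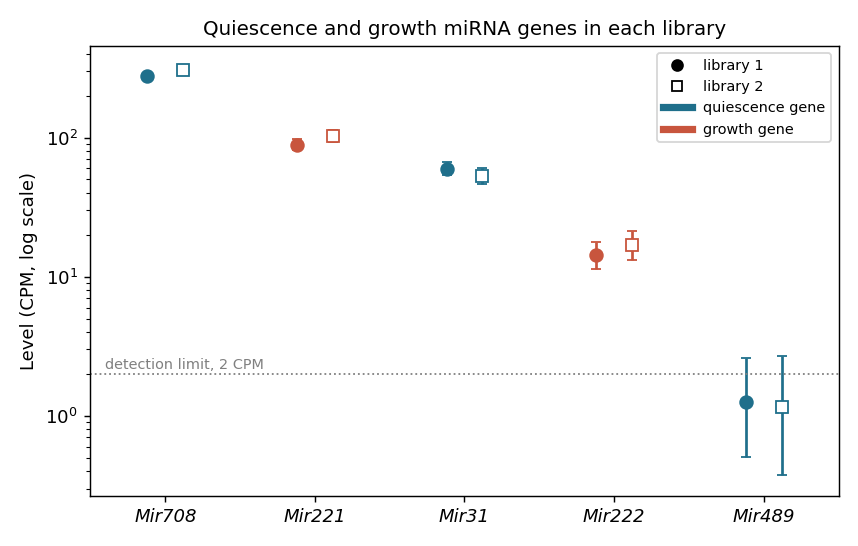
Level of each member in each library, in CPM on a log axis. Filled circles are library 1, open squares library 2, bars exact Poisson 95% intervals and colours the 2 classes. Mir708 stands highest at 275 and 308 CPM and Mir489 lowest, below the dotted detection level of 2 CPM.

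Both libraries placed the genes in the order Mir708, Mir221, Mir31, Mir222 and Mir489. Mir708 was 3.10 times as high as Mir221 in library 1 and 2.99 times in library 2. The gap from Mir221 to Mir31 was the smallest at 1.48 and 1.94 times, and the higher Mir31 library stayed 28.9 CPM below the lower Mir221 library. Mir31 exceeded Mir222 by 4.16 and 3.15 times, and Mir222 exceeded Mir489 by 11.4 and 14.6 times. No neighbours in this order overlapped over the 2 libraries. A read here spans a whole mature miRNA, so counts do not grow with hairpin length. Divided by length the order was the same, from 267 CPM per 100 bases of hairpin for Mir708 to 1.13 for Mir489.

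The 3 quiescence genes together held 0.0336% of gene counts in library 1 and 0.0362% in library 2, and the 2 growth genes held 0.0103% and 0.0120%. The quiescence sum was thus 3.26 and 3.02 times the growth sum. Mir708 made up 81.8% and 85.0% of the quiescence sum. Without it, a choice made after the values were seen, the ratio fell to 0.592 in library 1 and 0.453 in library 2, so the order of the classes rested on this gene. Mir206, the muscle-lineage miRNA with the most counts in both libraries, stood at 470 and 388 times the level of Mir708.

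The count of Mir708 is uncertain for another reason than depth. Its hairpin shares a stretch of 23 bases with Gm23134, another counted gene at chr2:157562361-157562447, and 22 of the 23 bases of miR-708-5p lie in that stretch. Gm23134 had 0 counts in library 1 and 1 in library 2. Reads matching several places are listed apart from the genes in these tables and made up 36.9% and 37.6% of all reads, and their part in the level of Mir708 was not tested. For the remaining members the longest run in common with any other counted gene, read on the same strand, was 12 bases. Read as the reverse complement it was 14 bases, between Mir489 and Mir6360. The rest of the genome was not searched, so loss of their reads to several places was not tested either. Mir221 and Mir222 shared only 9 bases with each other.

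Seed partners outside the group had more reads than the quiescence members they share a seed with. Mir28a, in an intron of Lpp, had 11542 and 9015 counts, or 2072 and 2079 CPM. That was 7.53 times (7.14 to 7.95) the level of Mir708 in library 1 and 6.76 times (6.38 to 7.16) in library 2, with exact binomial intervals. This ratio differed between the libraries beyond counting error (Fisher's exact test, two-sided p = 0.00715, adjusted over the 3 pairs tested 0.0214), a test that was not planned. The other pairs tested had far fewer counts. By the exact counting test described below, 55.5% of all detected genes differed between the libraries. Of the mature miR-28a-5p, 20 of 22 bases lie in a stretch shared with Mir28c, so this level is uncertain too. The seed of miR-489-3p was also that of miR-425-5p, whose gene Mir425 had 2935 and 1809 counts, or 527 and 417 CPM. Mir425 thus stood far above Mir489 in both libraries. The seed of Mir221 and Mir222 was found in 1 further gene, Mir1928, with 0 counts in both libraries, and that of miR-31-5p in no other. The seed search covered the 1018 of 2202 counted genes with a mature sequence in the RefSeq table.

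**Figure D2:**
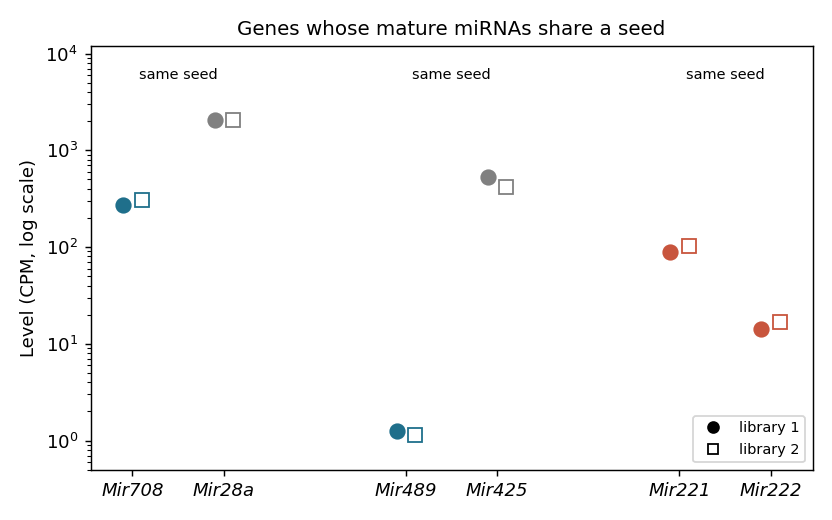
Level in CPM, on a log axis, of genes whose mature strands share a seed, with filled circles for library 1 and open squares for library 2. Mir28a at 2072 and 2079 CPM stands above Mir708, and Mir425 at 527 and 417 CPM above Mir489, while Mir221 and Mir222 are themselves a seed pair.

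Mir489 could be set against a second miRNA of the same intron. Mir653 lies in Calcr at chr6:3721301-3721385, minus strand, 511 bases downstream of Mir489 in the direction of transcription. Both hairpins are printed because they come from the same host intron yet differ in level. Capitals mark the annotated mature strands.
Mir489: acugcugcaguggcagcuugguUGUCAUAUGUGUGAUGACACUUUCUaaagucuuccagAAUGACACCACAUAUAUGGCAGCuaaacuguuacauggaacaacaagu
Mir653: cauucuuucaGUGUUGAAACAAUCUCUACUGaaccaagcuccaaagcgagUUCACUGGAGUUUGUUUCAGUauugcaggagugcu
Mir653 had 53 counts in library 1 and 42 in library 2, or 9.52 and 9.68 CPM. It was 7.57 times (exact binomial 95% interval 3.43 to 19.7) as high as Mir489 in library 1 and 8.40 times (3.33 to 27.2) in library 2. Both intervals lay above 1, and the ratio did not differ between the libraries beyond counting error by Fisher's exact test (two-sided p = 1). With 7 and 5 counts for Mir489, this test could have missed all but a large difference. Intron 1 of Tenm4 holds Mir708, and the only other counted miRNA of that host, Mir6394, had 0 counts in both libraries.

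Mir221 and Mir222, which are thought to be cut from 1 primary transcript, kept nearly the same proportion in both libraries. Mir221 was 6.18 times (4.87 to 7.92) as high as Mir222 in library 1 and 6.11 times (4.76 to 7.94) in library 2, by exact binomial intervals. By Fisher's exact test the ratio did not differ between the libraries beyond counting error (two-sided p = 1, and 1 when adjusted over the 3 pairs). In both loci the hairpin nearer the 5′ end of the shared strand, Mir489 and Mir222, was the lower one.

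**Figure D3:**
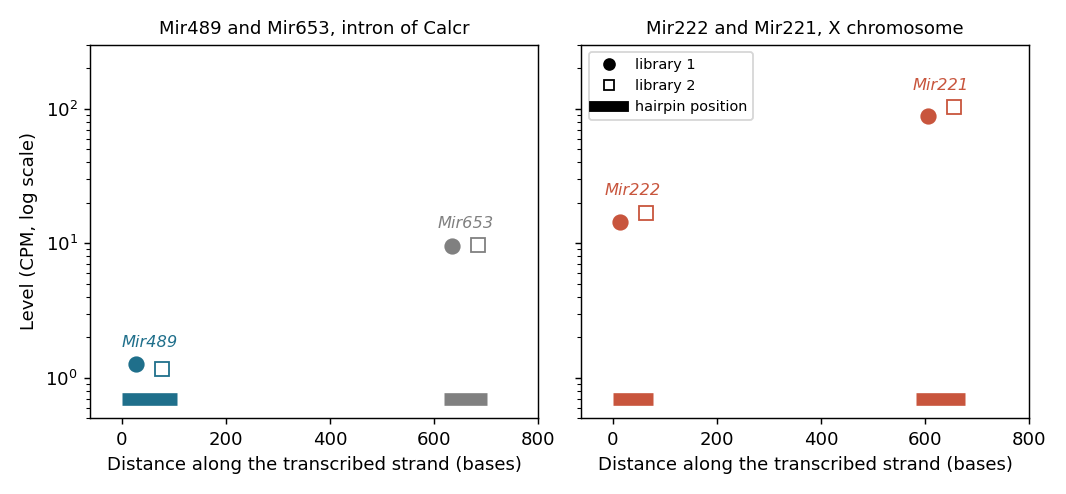
Level in CPM, on a log axis, against distance in bases from the start of the upstream hairpin along the transcribed strand, for Mir489 with Mir653 (left) and Mir222 with Mir221 (right). Circles are library 1, squares library 2 and thick bars the hairpins. In both panels the downstream hairpin stands higher, by 7.57 and 8.40 times on the left and by 6.18 and 6.11 times on the right.

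The predicted folds of the hairpins differed as well. Computed with RNAfold, the minimum free energy of the Mir489 hairpin was -0.351 kcal/mol per base, and 85.7% of detected genes had a lower, more stable value. Mir222 was the most stable member at -0.515 kcal/mol per base, with 15.8% of detected genes lower. Mir31 at -0.459, Mir221 at -0.451 and Mir708 at -0.414 kcal/mol per base lay nearer the median of detected genes of -0.430. Mir653 at -0.416 lay between Mir489 and that median. The most and least stable members, Mir222 and Mir489, were also the lowest in level.

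Seed matches were then looked up in the 3′ UTRs of the known targets, which small RNA libraries do not measure. One transcript per gene, that with the longest 3′ UTR, was searched for the 7 letters complementary to bases 2 to 8 followed by A. The matches, in capitals, are shown on the transcript strand from the GENCODE M21 transcripts.
Myf5, for miR-31-5p: tgtaaatactgTCTTGCCActt
Dek, for miR-489-3p: gttaactctaaGTGTCATAgaa
Tns3, for miR-708-5p: ttccactttttAGCTCCTAttg
Cdkn1b, for miR-221-3p and miR-222-3p: aaaagcattggATGTAGCAttg
These windows lie at chr10:107483893-107483914 on the minus strand (Myf5), chr13:47085324-47085345 minus (Dek), chr11:8432676-8432697 minus (Tns3) and chr6:134924420-134924441 plus (Cdkn1b). Each target held 1 such match. Among 20996 3′ UTRs, TCTTGCCA was present in 3.53%, GTGTCATA in 1.93%, AGCTCCTA in 2.07% and ATGTAGCA in 3.48%. In 3′ UTRs within 1.2 times the length of the target's, the shares were 2.90%, 1.61%, 4.24% and 9.12%. Dek held 2 further shorter matches, 1 to bases 2 to 8 alone and 1 to bases 2 to 7 followed by A, and Cdkn1b held 2 of the second kind. Only the transcript strand was searched, and a match describes the letters in the UTR, not a site in use.

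Between the libraries the members moved little. Counts were compared by an exact two-sided binomial test given totals scaled by TMM, with Benjamini-Hochberg adjustment over the 335 detected genes. This test compares 2 libraries and knows counting error only. Of the 4 detected members 1 was called, Mir708, which was higher in library 2. Of all detected genes 55.5% were called, 28.7% higher in library 2 and 26.9% higher in library 1, so calls were no more frequent among the members than among all genes. Ratios are log2 of library 2 over library 1 with 0.5 CPM added to both, and their intervals are computed without that addition.

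Mir708 had a log2 ratio of 0.14 (0.03 to 0.24) and an adjusted p of 0.0218 by the exact counting test, a difference of 1.10 times. The call was lost with DESeq2 size factors (adjusted p = 0.0877), with the unstranded counts (0.0612) and with no filter on low counts (0.505), within a range of 0.00314 to 1 over all alternatives. Mir221 stood at 0.19 (0.00 to 0.38) and was not called (adjusted p = 0.0755 by the exact counting test), and Mir222 stood at 0.20 (-0.27 to 0.68). Mir31 was the 1 detected member lower in library 2, at -0.19 (-0.44 to 0.05), and was not called. Mir489 was not tested for its low level, and its 7 and 5 counts gave an interval of -2.15 to 1.73. Among detected genes the median size of the log2 ratio was 0.20, and 67.8% of them lay further from 0 than Mir708, as did 53.7% for Mir221, 53.1% for Mir31 and 51.0% for Mir222. When the spread between the libraries was put into the test, with edgeR's exact test at the common coefficient of variation of 22.1%, 1.79% of detected genes were called and no member was (14 genes had an unadjusted p under 0.05). That spread was estimated from the same 2 libraries taken as 1 group, so the test is built to make few calls, and its lack of a call does not show that levels were equal.

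**Figure D4:**
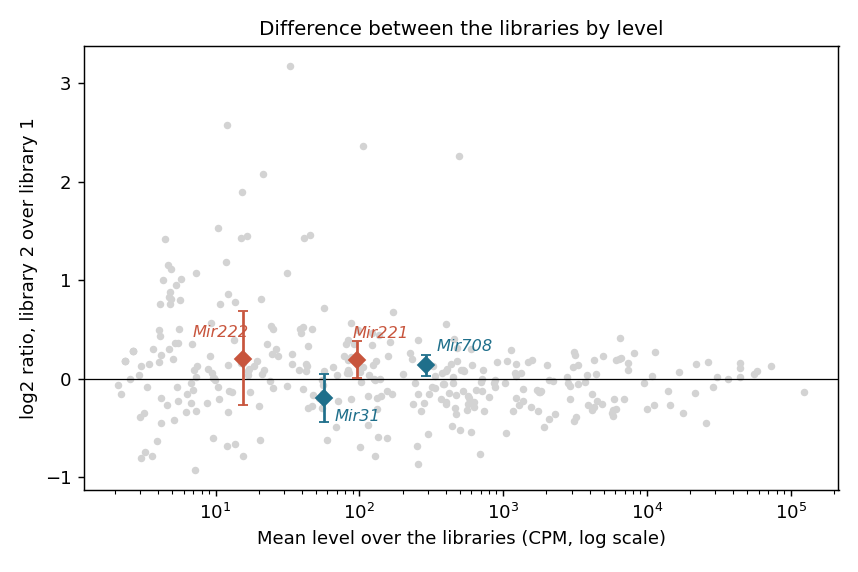
The log2 ratio of library 2 over library 1 against mean level in CPM (log axis) for the 335 detected genes in grey. Coloured diamonds are the 4 detected members with exact 95% counting intervals, and all 4 lie from -0.19 to 0.20.

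By level over both libraries, the gene most like Mir31 was Mir669c at 58.2 and 53.5 CPM. For Mir221 it was Mir29a, of the collagen-targeting mir-29 family, at 88.0 and 100.3 CPM, and for Mir222 it was Mir194-2, a liver and gut gene, at 14.5 and 16.6 CPM. The nearest to Mir708 was Mir128-2 at 306 and 340 CPM. Likeness was the distance in log2(CPM + 0.5) over the 2 libraries, 0.04, 0.04, 0.03 and 0.21 for these pairs. Mir489 had no close match among detected genes, since the nearest, Mir8115, lay 0.87 away.

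Other miRNA genes with known roles in these cells spanned a wider range than the members. Reads matching several places are counted for no gene, so numbered copies such as Mir16-1 and Mir16-2 may be counted too low. The size of this loss was not tested. Of 9 further quiescence genes in the tables, 4 lay above Mir708, and 8 were detected. The highest were Mir127, of the imprinted Dlk1-Dio3 cluster, at 43840 and 44955 CPM, Mir143, also a smooth muscle gene, at 24964 and 28592 CPM, and Mir195a, which restrains cell cycle genes, at 862 and 516 CPM. Between the libraries, 5 of the 8 were called higher in library 1 and 2 higher in library 2. Over all detected genes the shares were 26.9% and 28.7%. The median log2 ratio was -0.14 against 0.03 over all. Among those higher in library 1, Mir195a, Mir497, Mir16-1 and Mir16-2 belong to 1 miRNA family, so their calls are not separate cases. Of 10 further proliferation and activation genes, 7 lay above Mir708, led by Mir351 at 7446 and 6534 CPM, Mir27b at 4559 and 3719 CPM, and the cell cycle gene Mir17 at 2221 and 2212 CPM. There 4 of 9 detected genes were called higher in library 1 and none higher in library 2, with a median of -0.20. Over all detected genes the shares were 26.9% and 28.7%. The 4 calls became 6 with unstranded counts and 6 with DESeq2 size factors, all higher in library 1. Over all genes tested with unstranded counts, 86 of 320 were called higher in library 1 and 79 higher in library 2. With DESeq2 size factors these were 105 and 81 of 335. Of 18 differentiation genes, 6 lay above Mir708, led by Mir206 at 129336 and 119323 CPM, Mir378a at 56077 and 59971 CPM and Mir322 at 20780 and 23334 CPM. Of 17 detected differentiation genes, 4 were called higher in library 2 and 5 higher in library 1, a share close to the 55.5% over all, with a median of 0.07. With edgeR's exact test, no gene of these 3 lists or of the marker lists that follow was called.

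**Figure D5:**
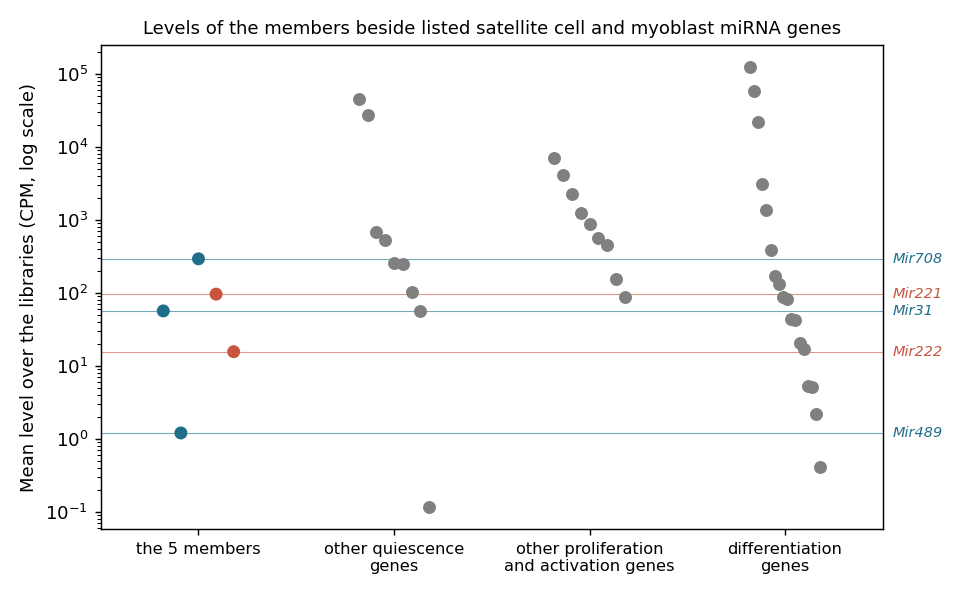
Mean level over the 2 libraries in CPM (log axis) of the 5 members and of the listed quiescence, proliferation and activation, and differentiation genes, 1 point per gene. Mir682, with 0 counts in both libraries, is left out. Lines mark the members' levels, and 4, 7 and 6 genes of the 3 lists lie above that of Mir708.

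Markers of the tissue and of other cell types differed between the libraries too. The muscle list summed to 130998 and 120702 CPM in libraries 1 and 2, nearly all of it Mir206, with none of its 9 genes at 0. The endothelial list, carried by Mir126a, summed to 29519 and 21932 CPM. The leukocyte list summed to 1013 and 652 CPM, with 4 of its 5 genes called higher in library 1 (26.9% over all detected genes). The smooth muscle list summed to 25509 and 29100 CPM, carried by Mir143, while its other gene, Mir145a, went from 545 to 508 CPM. The epithelial and epidermal list rose from 323 to 438 CPM, with 5 of its 7 detected genes called higher in library 2 by the exact counting test (28.7% over all), and the erythroid list went from 96.8 to 119 CPM. The neural and glial list stood at 350 and 342 CPM, of which Mir338 made up 346 and 328 CPM. Mir219a-2 went the other way, from 2.15 to 6.69 CPM. It was the 1 called gene of the 2 detected, on 12 and 29 counts, higher in library 2 (28.7% over all). Called genes of this list ranged from 0 with unstranded counts or detection at 10 CPM to 3 with no filter on low counts. In both libraries 3 of the 9 listed genes, Mir9-2, Mir124a-2 and Mir124a-3, were at 0. These have numbered copies, and reads matching several places are counted for no gene, so a 0 does not show absence. Mir221 and Mir222 are also known from vessel walls, and Mir31 from epidermis. The part of these cell types in the members' levels was not tested.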

How the data were processed

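The authors deposited raw counts of small RNA reads (below 30 bases, per the labels) per miRNA gene, 1 table per library, on mm10 with GENCODE M21 per the files' text. Aligner and counter were not given in the sources used here. The own-strand column was used. The 4 lines naming no gene stayed out of totals and tests: multimapping 36.9% and 37.6% of reads in libraries 1 and 2, unmapped 8.03% and 9.26%, no feature 1.70% and 2.09%, ambiguous 0%. Own-strand genes held 53.4% and 51.1%. All 2202 identifiers matched GENCODE M21.

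The members and lists were chosen with earlier results of these data known. Named were the members, their nearest, seed-sharing and neighbouring genes, and the top 3 of each pathway list. Further list genes were named where a sum, a count or its limit rested on them. Tools were edgeR 4.0.16 (TMM and its exact test), DESeq2 1.42.0 (size factors), R 4.3.3, Python 3.11.15, scipy 1.17.1 and RNAfold 2.7.2. The threshold was an adjusted p of 0.05. The tests were tested on simulated data. Alternatives covered strand, scaling, detection at 10 CPM or none, pseudocounts of 0.1 and 5, the test and each library alone.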

Additional observations from a re-analysis of the deposited data

Results flagged for a closer look

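Mir708 had 4 reads on the strand opposite to the gene in library 2 and 0 in library 1. These reads lie outside the own-strand column and exceed 3 counts, the most that a 0 allows. None of the other members had such a read in either library. The multimapping line, which belongs to no gene, took 36.9% of library 1 and 37.6% of library 2.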

How the results depend on the processing

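With unstranded counts the gene totals were smaller. The members' own counts stayed the same, except 1338 in place of 1334 for Mir708 in library 2, so their higher levels came from the smaller totals. Levels came to 64.3 CPM for Mir31, 1.37 for Mir489, 332 for Mir708, 109 for Mir221 and 17.8 for Mir222. The summed shares were 0.0398% (quiescence) and 0.0127% (growth). With all reads of the table as denominator the levels were 29.5, 0.630, 152, 49.96 and 8.14 CPM. The order of the members and the pair ratios held with either library alone. The log2 ratio of Mir708 lost its call at 0.12 with unstranded counts, 0.11 with DESeq2 size factors, 0.068 with no filter on low counts and 0.14 with edgeR's exact test (adjusted p = 1). Mir221 gained a call at 0.21 with library totals (adjusted p = 0.0459) and at 0.22 with detection at 10 CPM (0.0302). The cause was not tested. The number of called genes fell from 186 to 6 with edgeR's exact test, because that test takes its spread from the 2 libraries compared, and was 165 to 198 under the other alternatives. No member's ratio changed sign. The split of calls, 96 higher in library 2 and 90 higher in library 1 of 335 tested, became 81 and 105 of 335 with DESeq2 size factors. It was 80 and 118 of 740 with no filter, and 79 and 86 of 320 with unstranded counts. In place of 4 proliferation and activation genes, 8 were called with no filter and 6 with unstranded counts or DESeq2 size factors. Counts of 7 and 5 limit what can be said of Mir489. No paired analysis was possible because the series has 1 group.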
